A study of Homo sapiens with 40 samples.

Results

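Transcripts of 10 genes for transcription factors of squamous and epithelial identity and of its loss were followed across growth factor and inhibitor treatments in 2 carcinoma cell lines. The genes, TP63, SOX2, KLF4, KLF5, GRHL2, SNAI2, TWIST2, SOX4, PRDM1 and POU2F3, were taken by symbol, as a set chosen with earlier results of these data known, and all 10 were found among the 12655 genes of the count table. The series asks how epidermal growth factor (EGF) receptor signalling relates to local invasion. RNA was read from the 3' ends of polyadenylated transcripts in 40 libraries, 4 for each of 5 groups in each line.

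FaDu is a line from a hypopharyngeal tumour and Kyse30 a line from an oesophageal squamous cell carcinoma, so each line stands for 1 tumour. Both carried Dendra2, a fluorescent protein that light turns from green to red, and grew as spheroids in 1.7 mg/mL type I collagen for 72 h. Serum-free spheroids had neither EGF nor inhibitor. Spheroids with 9 nM EGF gave 2 sorted groups, non-invasive and invasive cells. The other 2 groups had 9 nM EGF with 10 µg/mL of cetuximab, a blocking antibody against the EGF receptor, or 9 nM EGF with 100 nM AZD6244, an inhibitor of the kinase MEK. The label on cell selection describes serum-free, cetuximab and MEK inhibitor cells as unselected, and gives 1 description for both sorted groups, which only the titles separate. A comparison of a sorted with an unselected group therefore changes sorting and treatment together, and the 2 cannot be told apart.

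Stratified squamous epithelia renew from a basal layer, where p63, the product of TP63, and SOX2 maintain lineage identity. KLF5 is a factor of basal and proliferating cells. Cells mature upwards under factors such as KLF4 and the PRDM1 product Blimp-1. GRHL2 keeps up genes of epithelial junctions. SNAI2 and TWIST2 encode repressors known from epithelial-mesenchymal transition (EMT), the shift towards a motile cell state, SOX4 is an HMG-box factor active in progenitors and in EMT, and POU2F3 specifies chemosensory tuft cells and is also present in skin. EGF acts through its receptor and, among other routes, through the kinases RAF, MEK and ERK.

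Total counts per library ranged from 2312126 to 5669262 for FaDu. For Kyse30 they ranged from 2538447 to 4534339 with 1 exception, invasive replicate 1, which is called the shallow library here. It held 463124 counts from 5281 detected genes. It stood apart in more than depth, with 26.6% of counts from mitochondrial transcripts and 8.18% from the non-coding RNA MALAT1. It had 0 counts of TP63, SOX2, TWIST2, PRDM1 and POU2F3. The other 3 invasive Kyse30 libraries averaged 19.3, 24.3, 17.1, 50.4 and 1.99 CPM of them (counts scaled to the depth of each library). Depth and RNA quality cannot be told apart in this library, and why these genes had 0 counts was not tested. The numbers of the 10 genes called in Kyse30, and the counts for the ERK and GRHL2 gene lists, are therefore also given without the shallow library. Other list and marker values for Kyse30 use all 20 libraries. Basal squamous genes were checked as markers of the lines. KRT5, a basal keratin, averaged 762 CPM in serum-free FaDu. In Kyse30 its median over libraries was 0.258 CPM, with a highest value of 15.1 CPM in the shallow library. It had a count in 11 of 20 Kyse30 libraries, so this defining squamous marker was at or near 0 in most of them. KRT14 reached at most 0.734 CPM in Kyse30, and it averaged 0.248 CPM in serum-free FaDu, near 0 in these libraries too. KRT15, another basal keratin, was present in both lines, with medians of 76.6 CPM in FaDu and 97.3 CPM in Kyse30. The other measured basal squamous genes went both ways by median. ITGB4, ITGA6, COL17A1, LAMB3 and PERP were higher in Kyse30 than in FaDu. DST, BNC1, JAG2, FGFR2, TRIM29, DSG3, FAT2, CDH3 and DLK2 were lower there. Mitochondrial transcripts took 14.3% to 15.8% of all counts where FaDu had no EGF and 7.02% to 14.6% in its other groups. In serum-free Kyse30 their share was 19.7% to 23.8%. Their part in the differences from serum-free spheroids was not tested. Of the fibroblast, blood and endothelial marker lists, of 8, 7 and 5 genes, 1 gene of each was in the table. COL1A1 had 0 to 24.9 CPM, the macrophage gene CD68 at most 10.4 CPM in FaDu and 54.0 CPM in the shallow Kyse30 library, and the endothelial gene CDH5 at most 32.9 CPM. In FaDu EGF moved all 3, with log2 changes of -1.38 for COL1A1, 3.00 for CD68 and -5.29 for CDH5. In Kyse30 it moved CDH5 by -2.48, and with cetuximab CDH5 was higher than in non-invasive cells by 2.33. The nuclear RNAs MALAT1 and NEAT1, read as a sign of RNA quality, were higher in non-invasive than in serum-free Kyse30 cells by 2.21 and 1.72. They were lower than in non-invasive cells with cetuximab (-2.62 and -2.37) and MEK inhibitor (-2.70 and -2.25). These comparisons share the non-invasive group, which was split. MALAT1 took 6.27% and 9.63% of counts in its replicates 1 and 3, and 1.68% and 1.91% in replicates 2 and 4. In serum-free Kyse30 it took 1.01% to 1.27%. The part of any of these in the results was not tested.

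The 10 genes differed between the lines before any EGF was added. As RNA came from many cells at once, fewer cells of a type and less RNA per cell cannot be told apart. In serum-free spheroids 7 of the 10 were called, meaning an adjusted p under 0.05 in edgeR's quasi-likelihood test over all genes, against 43.5% of all genes tested between the lines. PRDM1 was highest in Kyse30 relative to FaDu, at 57.6 ± 12.0 CPM (SD, n = 4) against 1.51 ± 1.68 CPM, a log2 difference of 5.09 ± 0.59 (SE; edgeR adjusted p = 2.12e-09). KLF4 (2.59 ± 0.43), TWIST2 (1.14 ± 0.37), KLF5 (0.64 ± 0.24) and SOX4 (0.57 ± 0.19) were also higher in Kyse30. TP63 was lower in Kyse30, at 10.6 ± 6.13 against 50.5 ± 11.7 CPM, a log2 difference of -2.26 ± 0.42 (edgeR adjusted p = 2.63e-05). SNAI2 was lower there as well, at 14.5 ± 2.34 against 73.4 ± 5.57 CPM (log2 difference -2.35 ± 0.41). SOX2, GRHL2 and POU2F3 were not called, with 95% intervals of the log2 difference of -1.62 to 0.02, -0.51 to 0.51 and -0.77 to 0.96. The KLF5 call was lost on leaving out any 1 of 5 libraries (FaDu serum-free replicates 2, 3 and 4, Kyse30 serum-free replicates 1 and 4). The SOX4 call was lost without Kyse30 serum-free replicate 4 and the TWIST2 call without FaDu serum-free replicate 2. The PRDM1 difference was 6.28 without FaDu serum-free replicate 2.

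**Figure D1:**
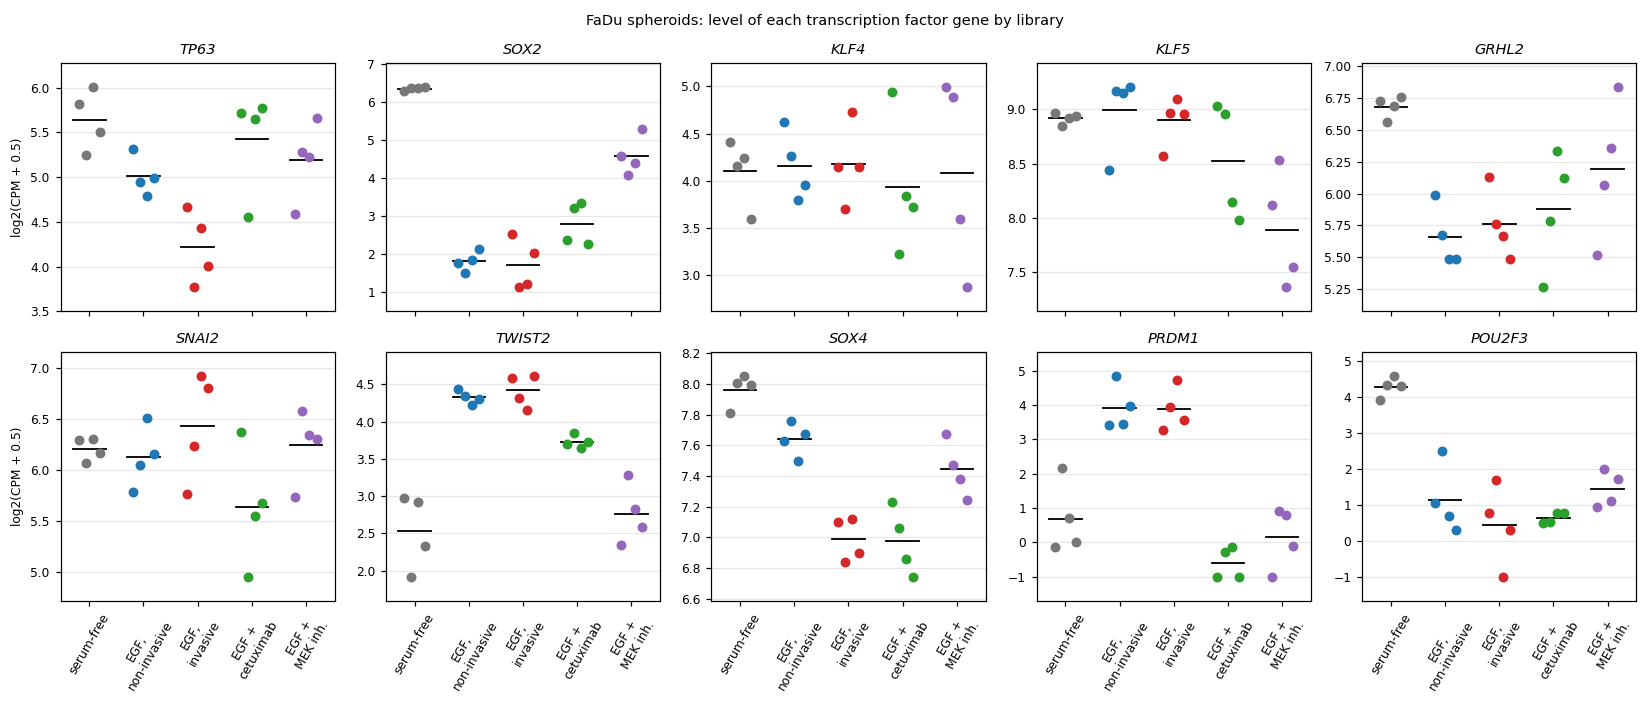
Level of each gene in the 20 FaDu libraries, as log2(CPM + 0.5), by group; points are libraries and lines are means of the log values. SOX2 and POU2F3 are highest in serum-free spheroids, and PRDM1 and TWIST2 in the non-invasive and invasive cells given EGF.

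**Figure D2:**
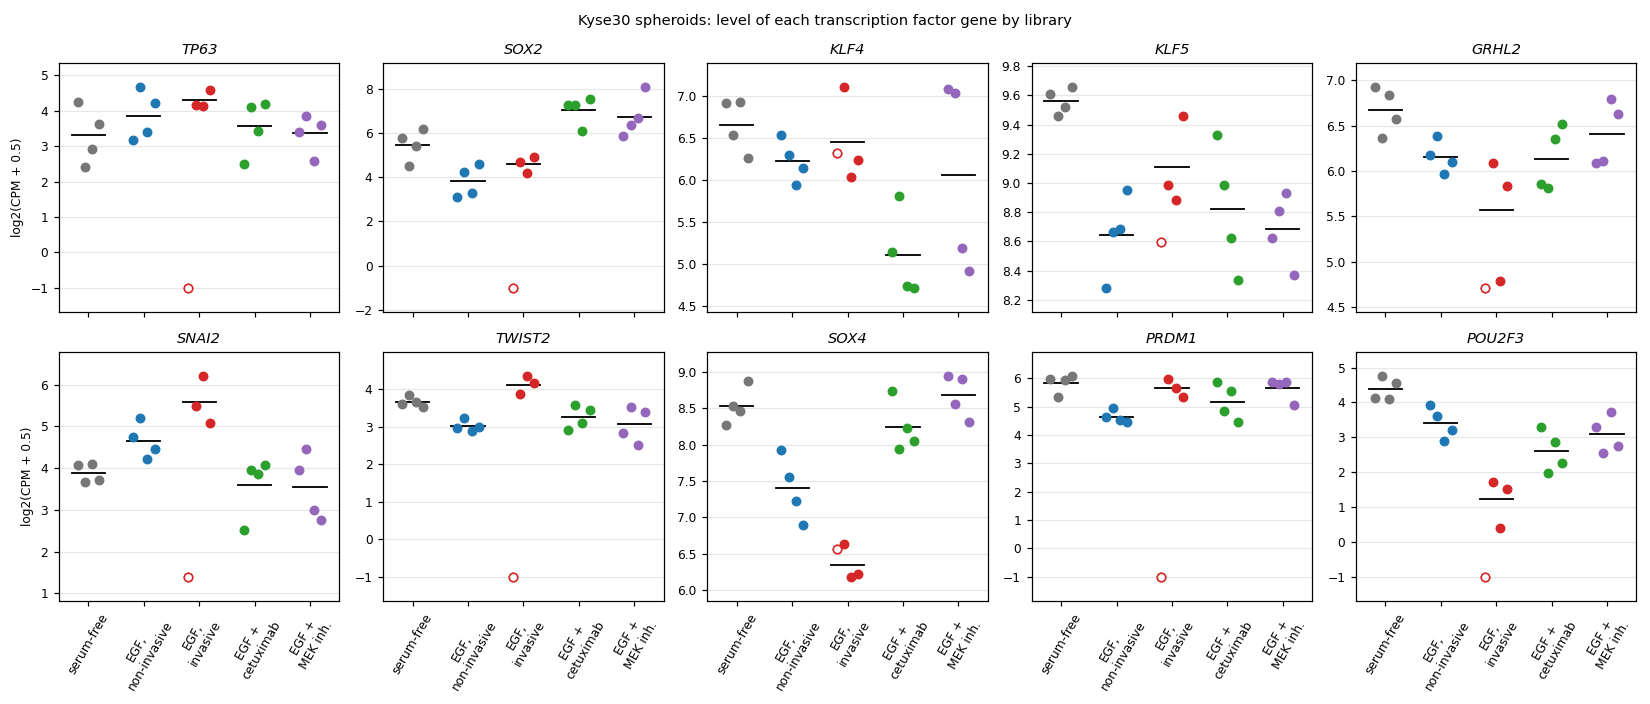
Level of each gene in the 20 Kyse30 libraries, as log2(CPM + 0.5), by group; points are libraries, the open point is the shallow invasive library, and lines are means of the log values without that point. SOX2 is highest with cetuximab or MEK inhibitor, and SOX4 is lowest in invasive cells.

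Counts of called genes were read against the share of all genes called in the same comparison, since many of them share a group. In FaDu, 7 of the 10 genes were called between non-invasive EGF-treated cells and serum-free spheroids, where 50.0% of all genes were. Between invasive and non-invasive cells 1 was called, against 3.03% of all genes. Cetuximab against non-invasive cells called 3, against 8.56% of all genes, and MEK inhibitor against non-invasive cells called 5, against 29.7%. Between MEK inhibitor and cetuximab the count was 3, against 19.7%. Relative to serum-free spheroids it was 6 with cetuximab, against 43.8%, and 4 with MEK inhibitor, against 19.4%.

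In Kyse30, 3 of the 10 were called between non-invasive cells and serum-free spheroids, where 12.9% of all genes were, and 2 between invasive and non-invasive cells, where 0.409% were. Cetuximab called 2, against 4.92%, and MEK inhibitor 2, against 4.56%, each relative to non-invasive cells. Relative to serum-free spheroids cetuximab called 2, against 3.13%, and MEK inhibitor 1, against 3.90%. Between the inhibitors edgeR called 0, against 1.18% of all genes, as did DESeq2 and limma-voom, and 1 gene had an unadjusted p under 0.05. Without the shallow library the 7 counts, in the order EGF, invasion, cetuximab, MEK inhibitor, the inhibitors against each other, and each inhibitor against serum-free, were 4, 3, 3, 3, 0, 4 and 2. The shares of all genes were then 27.8%, 2.10%, 17.1%, 14.4%, 4.66%, 15.2% and 15.4%.

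**Figure D3:**
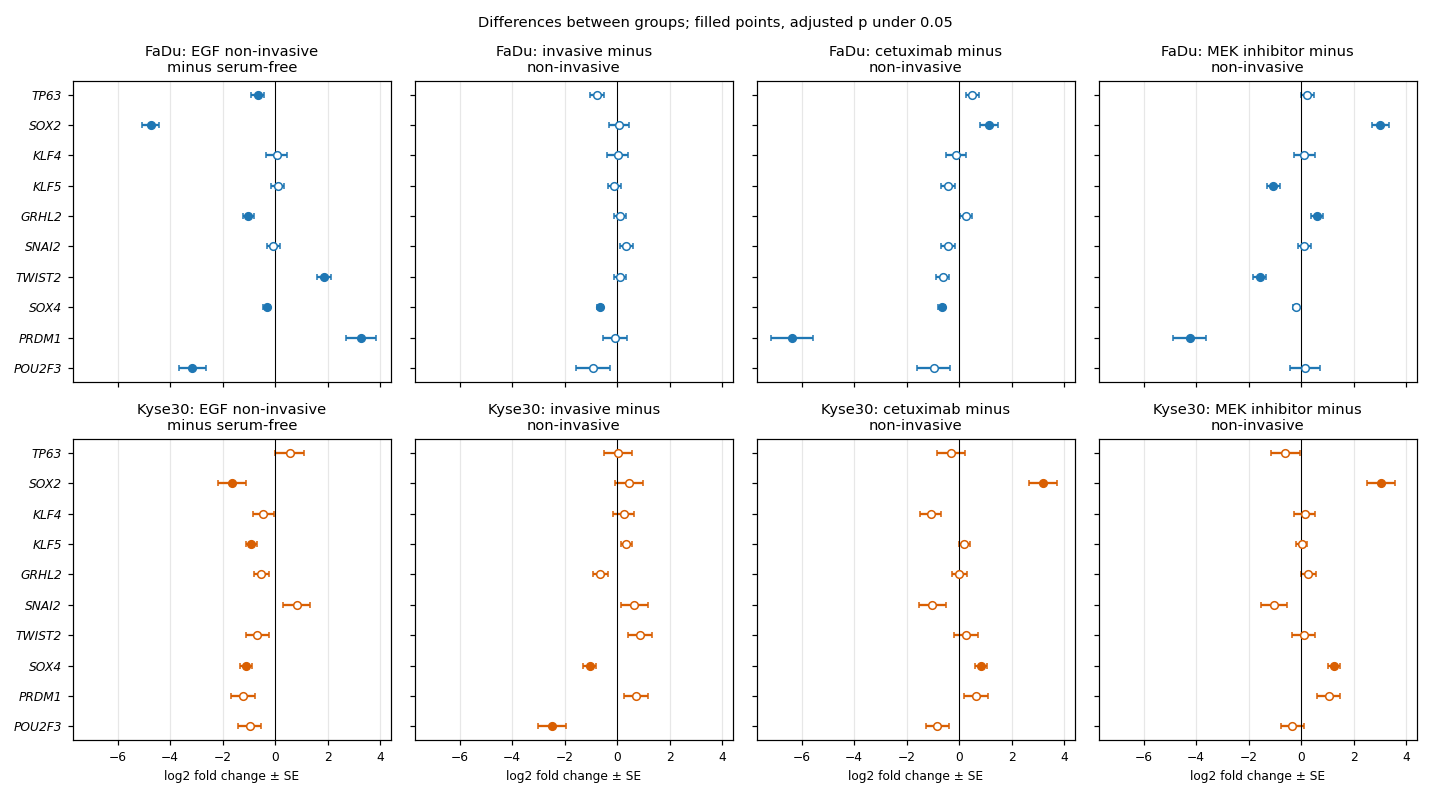
Log2 fold change ± SE of each gene for 4 comparisons in FaDu (upper row) and Kyse30 (lower row), from fits over all 20 libraries of a line; filled points have an adjusted p under 0.05. SOX2 lies left of 0 for EGF and right of 0 for the MEK inhibitor in both lines, and in FaDu SOX2 has the widest change for EGF and PRDM1 the widest for each inhibitor.

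SOX2, a partner of p63 in basal squamous cells, gave the widest fall with EGF in FaDu among the genes of the chosen set. It lies on chromosome 3 (GRCh38, 181711924 to 181714436, plus strand, GENCODE 29). Its promoter is shown because SOX2 fell most with EGF in FaDu within that set. The 220 bases, chr3:181711675-181711894 on the plus strand of GRCh38.p14 (RefSeq), run from 250 to 31 bases before the start. Capitals mark a GC box, the motif GGGCGG or its reverse complement CCGCCC.
SOX2: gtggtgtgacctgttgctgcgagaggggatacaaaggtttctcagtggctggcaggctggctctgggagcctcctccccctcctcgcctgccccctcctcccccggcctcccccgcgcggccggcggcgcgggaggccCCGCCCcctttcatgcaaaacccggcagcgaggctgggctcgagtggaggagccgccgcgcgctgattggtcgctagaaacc
The GC box lies 112 bases before the start, and 38.9% of 35116 RefSeq promoter windows of this length held at least 1. Neither an AP-1 motif (TGANTCA, in 5.98% of windows) nor an ETS motif (CCGGAA, in 11.8%), each searched on both strands, had a match in this window or in those of the 6 other genes with an entry, TP63, KLF4, KLF5, TWIST2, SOX4 and PRDM1. KLF4 and TWIST2 each held 4 GC boxes, and PRDM1, TP63, KLF5 and SOX4 held none. In each gene 1 window was searched, so other starts of a gene were not covered.

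In serum-free FaDu the 4 SOX2 values were 78.8, 82.3, 82.5 and 84.2 CPM. In non-invasive cells they were 2.91, 2.33, 3.12 and 3.87 CPM. Every EGF-treated library thus lay far below every serum-free one. SOX2 fell by 4.73 ± 0.32 on the log2 scale, 26.6-fold (edgeR adjusted p = 4.59e-12). With cetuximab the values were 4.69, 8.82, 9.64 and 4.30 CPM, and with MEK inhibitor 23.6, 16.6, 20.7 and 38.7 CPM. Both inhibitor groups stood above all non-invasive libraries and below all serum-free ones. The rise with MEK inhibitor was 3.02 ± 0.32 (8.10-fold, edgeR adjusted p = 4.22e-08) and that with cetuximab 1.14 ± 0.35 (2.20-fold, edgeR adjusted p = 0.0364). The cetuximab call was lost with limma-voom, in a fit of the 2 groups alone, and on leaving out any 1 of 5 libraries (cetuximab replicates 2 and 3, non-invasive replicates 1, 2 and 3), with adjusted p up to 0.192. The groups with MEK inhibitor and with cetuximab did not overlap either, with a log2 difference of 1.88 ± 0.29 (edgeR adjusted p = 3.66e-05). Invasive cells, at 5.26, 1.68, 1.83 and 3.59 CPM, spread across the non-invasive range, and the difference was not called, with a 95% interval of -0.69 to 0.84. By mean level the FaDu groups ran from serum-free through MEK inhibitor and cetuximab to the sorted cells. Cetuximab overlapped the invasive libraries, a pair that was not tested, and the order of invasive and non-invasive cells is within their spread.

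In Kyse30 SOX2 also fell with EGF and was high with either inhibitor. Serum-free values were 53.8, 22.1, 42.4 and 72.0 CPM and non-invasive values 8.18, 18.4, 9.23 and 23.9 CPM. The groups overlapped at 1 serum-free library, and SOX2 fell by 1.64 ± 0.52 (edgeR adjusted p = 0.0366). That call was lost with limma-voom, without the 3 libraries that stand apart (non-invasive replicates 1 and 3 and the shallow library, described with SOX4), and on leaving out any 1 of 6 libraries (non-invasive replicates 1, 2 and 3, serum-free replicates 1, 3 and 4). With cetuximab the values were 155, 152, 68.0 and 187 CPM, and with MEK inhibitor 57.6, 81.6, 101 and 268 CPM. Neither group overlapped the non-invasive cells. The rises over non-invasive cells were 3.21 ± 0.54 (9.24-fold, edgeR adjusted p = 0.000533) and 3.06 ± 0.53 (8.36-fold, edgeR adjusted p = 0.000721). Without MEK inhibitor replicate 4 the second was 2.40. Against serum-free spheroids the cetuximab group was higher by 1.56 ± 0.50, which was not called with all libraries (edgeR adjusted p = 0.0876) and was called without the shallow one (edgeR adjusted p = 0.0451). In FaDu the same comparison was a fall of 3.60 ± 0.29.

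TP63 encodes p63, and 3' counts do not separate its TAp63 and ΔNp63 forms. In FaDu its level was 56.0, 37.5, 63.8 and 44.9 CPM in serum-free spheroids and 39.2, 30.3, 27.2 and 31.2 CPM in non-invasive cells. The groups overlapped at 1 library of each, and TP63 fell by 0.66 ± 0.25 (edgeR adjusted p = 0.0296). The call was lost on leaving out any 1 of 5 libraries (non-invasive replicates 2, 3 and 4, serum-free replicates 1 and 3), with adjusted p up to 0.115. Invasive cells had 24.9, 13.1, 21.1 and 15.5 CPM, all below the non-invasive libraries. The log2 difference, -0.77 ± 0.26, was not called (edgeR adjusted p = 0.113; 95% interval -1.28 to -0.26). With cetuximab the values were 52.1, 23.0, 49.8 and 54.3 CPM, where replicate 2 stood apart. The log2 difference from non-invasive cells was 0.50 ± 0.25 with all libraries and 0.70 without that replicate (edgeR adjusted p = 0.234 and 0.0379). In Kyse30 TP63 had a mean of 10.3 to 15.4 CPM in the 5 groups and edgeR called 0 of the 7 comparisons, as did DESeq2 and limma-voom, with 0 at an unadjusted p under 0.05. Without the shallow library the invasive mean was 19.3 CPM, the highest of the Kyse30 groups. The log2 difference from non-invasive cells was then 0.305 ± 0.44, not called (edgeR adjusted p = 0.779).

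KLF5, a zinc-finger factor of basal and proliferating epithelium, ran between 164 and 806 CPM over the 40 libraries. In FaDu it had 499, 460, 483 and 488 CPM in serum-free spheroids and 347, 575, 566 and 588 CPM in non-invasive cells. These groups overlapped and did not differ by the test (95% interval of the log2 difference -0.38 to 0.59). With MEK inhibitor it had 278, 371, 164 and 187 CPM, below the non-invasive range except for 1 library, and was lower by -1.06 ± 0.25 on the log2 scale (2.08-fold, edgeR adjusted p = 0.00355). In Kyse30 it had 782, 703, 736 and 806 CPM in serum-free spheroids and 311, 405, 411 and 495 CPM in non-invasive cells. The groups did not overlap, and KLF5 fell by 0.90 ± 0.21 (1.87-fold, edgeR adjusted p = 0.00593). MEK inhibitor was not called against cetuximab in FaDu with all libraries, and was called lower without cetuximab replicate 4 (-0.77, edgeR adjusted p = 0.0335) or MEK inhibitor replicate 2 (-0.89, edgeR adjusted p = 0.0112). MEK inhibitor left it at 330 to 488 CPM in Kyse30, a log2 difference from non-invasive cells of 0.03 ± 0.21 and from serum-free spheroids of -0.87 ± 0.21 (edgeR adjusted p = 0.0214). The latter call was lost on leaving out any 1 of 5 libraries (MEK inhibitor replicates 1, 2 and 4, serum-free replicates 3 and 4). Cetuximab against serum-free Kyse30 gave -0.70 ± 0.21, not called with all libraries (edgeR adjusted p = 0.0735) and called without cetuximab replicate 1 (-0.90, edgeR adjusted p = 0.0432) or the shallow library (edgeR adjusted p = 0.0115).

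KLF4, a zinc-finger factor of maturing keratinocytes, was called by edgeR in 0 of the 7 FaDu comparisons, and DESeq2, limma-voom and an unadjusted p under 0.05 also gave 0. Its FaDu group means ran from 16.4 to 19.7 CPM, and single libraries from 6.80 to 31.4 CPM. In Kyse30 its level was 120, 92.4, 121 and 76.7 CPM in serum-free spheroids and 35.0, 55.8, 26.2 and 25.8 CPM with cetuximab. These groups did not overlap, and KLF4 was lower with cetuximab by -1.52 ± 0.40 (2.88-fold, edgeR adjusted p = 0.0361). The call was lost with limma-voom and on leaving out any 1 of 6 libraries (cetuximab replicates 1, 3 and 4, serum-free replicates 1, 2 and 3). All cetuximab libraries also lay below the non-invasive ones, at 92.8, 78.2, 60.8 and 70.5 CPM, with a log2 difference of -1.08 ± 0.40 that was not called (edgeR adjusted p = 0.123). With MEK inhibitor the Kyse30 libraries formed a high pair at 135 and 131 CPM and a low pair at 36.1 and 29.6 CPM.

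GRHL2, the keeper of epithelial junction genes, shares 50 exonic bases with an antisense transcript, and the strand setting of the counting is not given in the sources used here. In FaDu it had 105, 93.8, 102 and 107 CPM in serum-free spheroids and 62.9, 50.5, 44.3 and 44.3 CPM in non-invasive cells. The groups did not overlap, and GRHL2 fell by 1.01 ± 0.22 (2.02-fold, edgeR adjusted p = 0.0005). With MEK inhibitor the values were 45.5, 66.6, 81.6 and 114 CPM, which overlapped both groups. The rise over non-invasive cells was 0.61 ± 0.22 (edgeR adjusted p = 0.0388). It was not called with limma-voom, with the replicate number as a block (adjusted p up to 0.0664 over these fits), in a fit of the 2 groups alone, or on leaving out any 1 of 5 libraries (non-invasive replicates 2, 3 and 4, MEK inhibitor replicates 3 and 4). With cetuximab GRHL2 stayed below serum-free spheroids by -0.75 ± 0.22 (edgeR adjusted p = 0.00742). In Kyse30 the group means were 102.8 ± 17.9 CPM in serum-free spheroids, 71.2 ± 8.82 in non-invasive and 44.2 ± 21.0 in invasive cells, and edgeR called 0 of the 7 comparisons of GRHL2, as did DESeq2 and limma-voom, with 1 at an unadjusted p under 0.05. In FaDu the difference of MEK inhibitor from serum-free spheroids was not called, and was called without MEK inhibitor replicate 4 (-0.63, edgeR adjusted p = 0.0411).

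SNAI2, the gene of the zinc-finger repressor Slug, was called by edgeR in 0 of the 7 comparisons in each line with all libraries, and by DESeq2 and limma-voom in 0, with 1 in FaDu and 0 in Kyse30 at an unadjusted p under 0.05. Without FaDu cetuximab replicate 1, SNAI2 was called lower with cetuximab than in serum-free spheroids (-0.77, edgeR adjusted p = 0.0137) and higher with MEK inhibitor than with cetuximab (0.87, edgeR adjusted p = 0.0143). In FaDu its values were 54.6, 65.7, 90.2 and 70.9 CPM in non-invasive and 53.8, 74.7, 120 and 111 CPM in invasive cells. The groups overlapped, and the 95% interval of the log2 difference was -0.14 to 0.85. In Kyse30 SNAI2 had 16.5, 12.2, 16.5 and 12.7 CPM in serum-free spheroids, 26.4, 36.2, 18.1 and 21.4 CPM in non-invasive cells, and 2.15, 44.1, 73.6 and 33.2 CPM in invasive cells. The lowest invasive value is 1 count in the shallow library. All non-invasive libraries lay above the serum-free ones, and the log2 difference of 0.82 ± 0.51 was not called (edgeR adjusted p = 0.329). Cetuximab libraries, at 5.18, 14.9, 14.0 and 16.3 CPM, lay below all non-invasive ones. The log2 difference of -1.02 ± 0.51 was not called (edgeR adjusted p = 0.282), and without the shallow library SNAI2 was called lower with cetuximab by -1.02 ± 0.36 (edgeR adjusted p = 0.0482).

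TWIST2, the gene of a basic helix-loop-helix repressor, rose with EGF in FaDu. It had 7.35, 3.28, 7.09 and 4.54 CPM in serum-free spheroids, 21.3, 19.8, 18.3 and 19.4 CPM in non-invasive cells and 23.4, 19.5, 17.4 and 23.9 CPM in invasive cells. Both sorted groups stood above all serum-free libraries and overlapped each other. The rise in non-invasive cells was 1.85 ± 0.26 (3.60-fold, edgeR adjusted p = 1.84e-06). With MEK inhibitor the values were 4.58, 9.22, 6.61 and 5.53 CPM, overlapping serum-free spheroids and lower than in non-invasive cells by -1.58 ± 0.25 (edgeR adjusted p = 2.69e-05). With cetuximab they were 12.5, 13.9, 12.1 and 12.7 CPM, between the other groups and overlapping none of them. The difference of cetuximab from non-invasive cells, -0.62 ± 0.24, was not called (edgeR adjusted p = 0.110), and was called with DESeq2, limma-voom and a fit of the 2 groups alone (adjusted p from 0.0420). MEK inhibitor lay below cetuximab by -0.96 ± 0.26 (edgeR adjusted p = 0.00858), a call not made in a fit of those 2 groups alone (adjusted p = 0.0599). In Kyse30 TWIST2 had 11.7, 13.8, 12.2 and 11.0 CPM in serum-free spheroids and 7.23, 8.88, 6.92 and 7.43 CPM in non-invasive cells. These did not overlap, in the direction opposite to FaDu, and the log2 difference of -0.67 ± 0.45 was not called (edgeR adjusted p = 0.370). The 3 deeper invasive Kyse30 libraries had 14.0, 19.9 and 17.3 CPM, all above the non-invasive ones. Over these 3 the log2 difference of 1.15 ± 0.34 was not called (edgeR adjusted p = 0.0657), nor was it with the shallow library (0.89 ± 0.45, edgeR adjusted p = 0.415).

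SOX4, alone among the 10, was called lower in invasive than in non-invasive cells in both lines. It shares 168 exonic bases with an antisense transcript. In FaDu non-invasive cells had 197, 216, 180 and 204 CPM and invasive cells 137, 114, 138 and 119 CPM. The groups were well apart, and SOX4 was lower in invasive cells by -0.65 ± 0.13 (1.57-fold, edgeR adjusted p = 0.00291), a call kept on leaving out each of the 8 libraries in turn. In Kyse30 non-invasive cells had 243, 188, 149 and 118 CPM and invasive cells 94.4, 98.8, 72.4 and 74.1 CPM. These did not overlap, and SOX4 was lower by -1.05 ± 0.24 (2.07-fold, edgeR adjusted p = 0.0469). The Kyse30 call was lost with limma-voom, with the replicate number as a block, in a fit of the 2 groups alone and on leaving out any 1 of 5 libraries (non-invasive replicates 1, 2 and 3, invasive replicates 3 and 4). It was also lost without 3 libraries that stand apart in the non-coding RNA MALAT1, which took 6.27% and 9.63% of counts in non-invasive replicates 1 and 3 and 8.18% in the shallow library, against at most 3.26% in the other 5. Without the shallow library alone the difference was -1.09 ± 0.23 (edgeR adjusted p = 0.0109).

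SOX4 moved with EGF and with the inhibitors as well, and not alike in the lines. In FaDu serum-free spheroids had 224, 257, 265 and 254 CPM, above all non-invasive libraries, and SOX4 fell with EGF by 0.33 ± 0.12 (edgeR adjusted p = 0.0307). That call was lost on leaving out any 1 of 5 libraries (non-invasive replicates 1 and 3, serum-free replicates 2, 3 and 4). Cetuximab, at 150, 133, 116 and 107 CPM, was lower than non-invasive cells by -0.66 ± 0.12 (edgeR adjusted p = 0.000814) with no overlap. MEK inhibitor, at 204, 177, 166 and 151 CPM, overlapped non-invasive cells (95% interval -0.44 to 0.05) and was higher than cetuximab by 0.47 ± 0.13 (edgeR adjusted p = 0.00858), a call not made in a fit of those 2 groups alone (adjusted p = 0.0603). In Kyse30 serum-free spheroids had 309, 368, 353 and 471 CPM, and SOX4 fell with EGF by 1.10 ± 0.23 (2.15-fold, edgeR adjusted p = 0.00196). With cetuximab it had 427, 246, 298 and 264 CPM and with MEK inhibitor 493, 376, 477 and 316 CPM. Both stood above every non-invasive library, by 0.82 ± 0.23 (edgeR adjusted p = 0.0356) and 1.25 ± 0.23 (edgeR adjusted p = 0.00130). The cetuximab call was lost on leaving out any 1 of 6 libraries (cetuximab replicates 1, 3 and 4, non-invasive replicates 2, 3 and 4).

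PRDM1, which encodes the repressor Blimp-1, gave the widest rise with EGF in FaDu among the genes of the chosen set. It lies on chromosome 6 (GRCh38, 106086320 to 106109939, plus strand, GENCODE 29). Its promoter is shown because PRDM1 rose most with EGF in FaDu within that set. The sequence is chr6:106086086-106086305 on the plus strand of GRCh38.p14 (RefSeq), the same 220-base window before the upstream start of the gene. None of the 3 motifs searched had a match, so the sequence has no capitals.
PRDM1: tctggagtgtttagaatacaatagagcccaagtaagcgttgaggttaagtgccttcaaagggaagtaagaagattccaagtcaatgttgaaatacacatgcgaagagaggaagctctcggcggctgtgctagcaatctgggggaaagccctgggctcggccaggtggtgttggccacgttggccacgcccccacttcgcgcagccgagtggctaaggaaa

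In serum-free FaDu the 4 libraries had 0.408, 3.99, 1.14 and 0.504 CPM of PRDM1, which are 1, 17, 4 and 2 counts. Non-invasive cells had 10.3, 28.2, 10.5 and 15.2 CPM, and invasive cells 9.09, 14.8, 26.0 and 11.5 CPM. All sorted libraries lay above all serum-free ones, and the sorted groups overlapped. The rise in non-invasive cells was 3.28 ± 0.58 (9.72-fold, edgeR adjusted p = 3.50e-05), and 4.46 without serum-free replicate 2. With cetuximab the libraries had 0, 1, 2 and 0 counts, together 3 against 277 in non-invasive cells. The ratio of non-invasive to cetuximab, scaled to depth, was 98.0, with a 95% interval of 33.2 to 478 that covers counting error only. The fit gave a log2 difference of -6.37 ± 0.80 (edgeR adjusted p = 2.66e-06), which was -7.25 without cetuximab replicate 3. MEK inhibitor libraries had 0, 6, 6 and 2 counts, lower than non-invasive cells by -4.24 ± 0.63 (18.9-fold, edgeR adjusted p = 8.11e-06). Both inhibitor groups thus lay below every non-invasive library. Cetuximab also lay below serum-free spheroids, by -3.09 ± 1.02 (edgeR adjusted p = 0.0106), which was -1.91 and not called without serum-free replicate 2 (adjusted p = 0.162), -3.95 without cetuximab replicate 3, and not called with limma-voom.

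Kyse30 showed PRDM1 the other way round. Serum-free spheroids had 61.5, 40.1, 61.3 and 67.3 CPM and non-invasive cells 24.5, 30.1, 22.7 and 21.2 CPM. The groups did not overlap, and the log2 difference of -1.22 ± 0.46 was not called with all libraries (edgeR adjusted p = 0.0808) and was called without the shallow one (-1.22 ± 0.26, edgeR adjusted p = 0.000895). DESeq2 called it with all libraries, as it did the MEK inhibitor difference that follows. MEK inhibitor, at 58.3, 55.7, 57.3 and 32.9 CPM, lay above every non-invasive library. Its log2 difference of 1.05 ± 0.45 was not called with all libraries (edgeR adjusted p = 0.231) and was called without the shallow one (1.05 ± 0.26, edgeR adjusted p = 0.00654). Cetuximab, at 57.8, 28.3, 45.9 and 21.3 CPM, overlapped non-invasive cells. The 3 deeper invasive libraries had 61.8, 49.6 and 39.6 CPM, all above the non-invasive ones. Over these 3 PRDM1 was called higher in invasive cells by 1.03 ± 0.28 (edgeR adjusted p = 0.0487), which was not so with the shallow library (0.72 ± 0.46, edgeR adjusted p = 0.535).

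POU2F3, the POU-domain gene of tuft cells, was present in serum-free spheroids of both lines. In FaDu it had 14.7, 19.5, 23.3 and 19.1 CPM there and 1.57, 5.12, 1.11 and 0.726 CPM in non-invasive cells. The groups were apart, and POU2F3 fell by 3.15 ± 0.52 (8.89-fold, edgeR adjusted p = 1.37e-05), a log2 change of -4.03 without non-invasive replicate 2. It was low with either inhibitor too. Cetuximab libraries had 0.894 to 1.21 CPM and MEK inhibitor libraries 1.41 to 3.46 CPM, lower than serum-free by -4.12 ± 0.56 (edgeR adjusted p = 1.14e-06) and -3.01 ± 0.52 (edgeR adjusted p = 0.000108). In Kyse30 it had 16.8, 26.6, 16.5 and 22.9 CPM in serum-free spheroids and 14.8, 11.7, 6.92 and 8.79 CPM in non-invasive cells, groups that did not overlap but were not called (-0.97 ± 0.43, edgeR adjusted p = 0.146). Invasive Kyse30 cells had 0, 9, 2 and 7 counts, at most 2.80 CPM, all below the non-invasive cells. POU2F3 was lower there by -2.48 ± 0.53 (5.57-fold, edgeR adjusted p = 0.0325). The call was lost with the replicate number as a block, in a fit of the 2 groups alone and on leaving out any 1 of 4 libraries (non-invasive replicates 1 and 2, invasive replicates 3 and 4); without the shallow library it was -2.35 ± 0.50 (edgeR adjusted p = 0.0108). With cetuximab POU2F3 was lower than in serum-free Kyse30 by -1.79 ± 0.44 (edgeR adjusted p = 0.0222), a call lost on leaving out any 1 of 4 libraries (cetuximab replicates 2, 3 and 4, serum-free replicate 2). With MEK inhibitor the difference from serum-free, -1.30 ± 0.43, was called only without the shallow library (edgeR adjusted p = 0.0199), among fits that left out 1 library.

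The difference of each change between the lines was tested directly in 1 fit over the 40 libraries, as the Kyse30 log2 change minus the FaDu log2 change. For EGF against serum-free 6 of the 10 genes were called, where 15.7% of all genes were. PRDM1 (-4.48 ± 0.75, edgeR adjusted p = 2.99e-05), TWIST2 (-2.50 ± 0.50), KLF5 (-0.996 ± 0.34) and SOX4 (-0.77 ± 0.27) had the lower log2 change in Kyse30, and SOX2 (3.11 ± 0.67, edgeR adjusted p = 0.000884) and POU2F3 (2.19 ± 0.67) had the higher one. For cetuximab against non-invasive cells 2 were called, against 1.31% of all genes, PRDM1 (7.04 ± 0.98, edgeR adjusted p = 7.54e-06) and SOX4 (1.54 ± 0.27, edgeR adjusted p = 0.000545). The SOX2 value of 2.10 ± 0.70 was not called (edgeR adjusted p = 0.153; 0.0396 with DESeq2). For MEK inhibitor against non-invasive cells 4 were called, against 5.10%, PRDM1 (5.29 ± 0.79), SOX4 (1.46 ± 0.27), TWIST2 (1.69 ± 0.50) and KLF5 (1.10 ± 0.34), while SOX2 differed by 0.05, with a 95% interval of -1.27 to 1.36. For invasive against non-invasive cells edgeR called 0 of the 10, against 0.182% of all genes, with 0 at an unadjusted p under 0.05, and DESeq2 and limma-voom called 0. The same genes were called without the shallow library, where the shares of all genes were 24.6%, 3.73%, 11.4% and 0.585% in the order given. For invasive against non-invasive cells 3 of the 10 then had an unadjusted p under 0.05, as did 1475 of all 12653 genes tested.

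Of these differences between lines, 5 depended on single libraries for their call. The POU2F3 call was lost without FaDu non-invasive replicate 3 or 4. The KLF5 and SOX4 calls for EGF and the KLF5 and TWIST2 calls for MEK inhibitor were each lost on leaving out any 1 of 11 of the 16 libraries compared. The libraries that could be left out with the call kept were, for KLF5 and EGF, FaDu non-invasive replicate 1, Kyse30 non-invasive replicates 3 and 4 and Kyse30 serum-free replicates 2 and 3. For SOX4 and EGF they were FaDu non-invasive replicate 3, Kyse30 non-invasive replicates 1 and 2 and Kyse30 serum-free replicates 1 and 3. For KLF5 and MEK inhibitor they were FaDu non-invasive replicate 1, FaDu MEK inhibitor replicates 1 and 2, Kyse30 non-invasive replicate 4 and Kyse30 MEK inhibitor replicate 4. For TWIST2 and MEK inhibitor they were FaDu MEK inhibitor replicate 2, Kyse30 non-invasive replicates 2 and 4 and Kyse30 MEK inhibitor replicates 1 and 3. The KLF5 and TWIST2 calls for MEK inhibitor were also lost with the replicate number as a block, and the TWIST2 call with limma-voom (adjusted p = 0.0924). Without the 3 libraries that stand apart both KLF5 calls were lost, and TP63 was called for EGF (adjusted p = 0.0153). The size of 3 called differences moved by over 1.5-fold with 1 library. POU2F3 for EGF was 3.07 without FaDu non-invasive replicate 2, PRDM1 for EGF was -5.66 without FaDu serum-free replicate 2, and PRDM1 for cetuximab was 7.89 without FaDu cetuximab replicate 3.

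**Figure D4:**
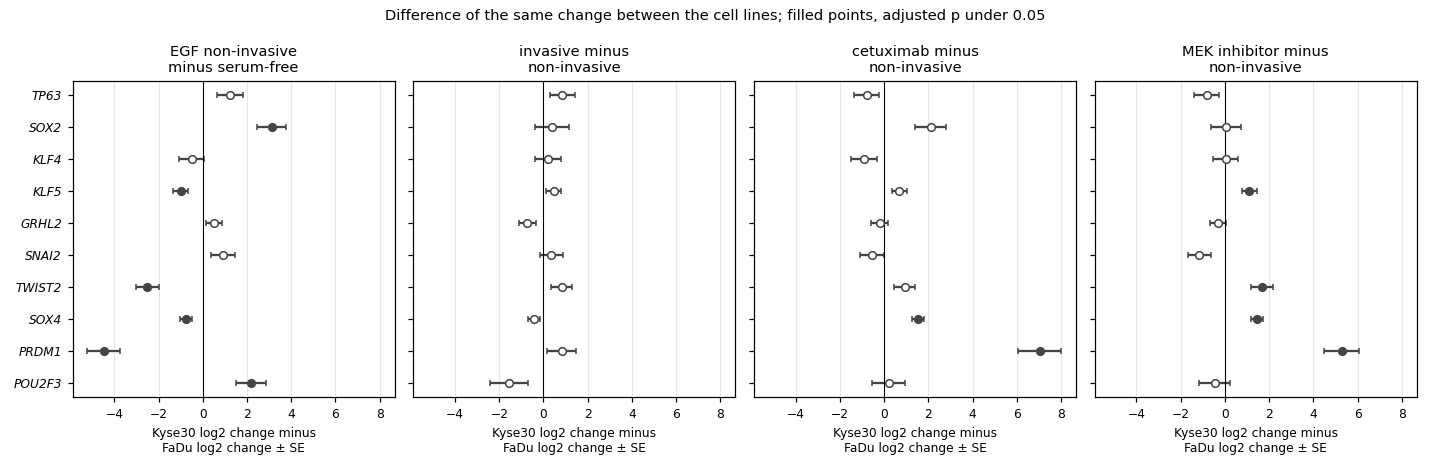
Kyse30 log2 change minus FaDu log2 change ± SE of each gene for 4 comparisons, over all 40 libraries; filled points have an adjusted p under 0.05. PRDM1 lies at -4.48 for EGF and at 7.04 and 5.29 for the inhibitors, and no gene is filled for invasive against non-invasive cells.

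Other genes of these programmes were read from lists chosen by function, described by counts and medians only, and read against the share of all genes called in the same comparison. That share was 50.0% for EGF, 8.56% for cetuximab and 29.7% for MEK inhibitor in FaDu, and 12.9%, 4.92% and 4.56% in Kyse30. Without the shallow library the Kyse30 shares were 27.8%, 17.1% and 14.4%. Of 10 genes that follow ERK activity, all measured, 9 were higher and 0 lower with EGF in FaDu, with a median log2 change of 3.93 against -0.02 over all genes tested. DUSP6, a phosphatase of ERK, rose there by 5.47 ± 0.33, and ETV4, an ETS factor induced by ERK, by 5.80 ± 0.46. With MEK inhibitor all 10 were lower than in non-invasive FaDu cells, and with cetuximab 3 were. In Kyse30 1 was higher and 3 lower with EGF, and 4 were lower with MEK inhibitor, and without the shallow library 4 were higher and 3 lower with EGF. FOSL1, an AP-1 subunit, rose with all libraries by 2.43 ± 0.44, opposite to the 3 that were lower. The ERK genes called with EGF in Kyse30 thus moved in both directions.

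Of 18 p63 targets and basal squamous genes 17 were tested in FaDu. With EGF 7 of them were higher and 7 lower, where 50.0% of all genes were called, with a median log2 change of -0.78 against -0.02 over all genes. KRT14 rose by 5.34 ± 0.73, from 0.248 to 12.5 CPM, while KRT15 fell by 4.78 ± 0.32, from 903 to 32.7 CPM, and KRT5 fell by 3.31 ± 0.35, from 762 to 76.7 CPM. The named basal keratins thus moved in both directions. KRT5 was back at 1037 CPM with MEK inhibitor and at 385 CPM with cetuximab, higher than in non-invasive cells by 3.76 ± 0.36 and 2.33 ± 0.34. In Kyse30 13 were tested, of which 6 were higher and 1 lower with EGF, where 12.9% of all genes were called. COL17A1, a hemidesmosome collagen, rose there by 2.67 ± 0.38 and KRT15 fell by 2.03 ± 0.30.

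Of 22 suprabasal and cornified genes, those of the maturing layers, 9 were tested in FaDu and 8 of them were lower with EGF, with a median log2 change of -1.81. KRT4 and KRT13, a keratin pair of mucosal squamous epithelium, fell with log2 changes of -9.14 ± 0.65 and -7.40 ± 0.66. With MEK inhibitor 4 of the 9 were higher than in non-invasive cells and 0 lower, where 29.7% of all genes were called. In Kyse30 12 were tested. With EGF 4 were higher and 2 lower, against 12.9% of all genes called, among them SPRR1B, a cornified envelope precursor, which rose by 3.15 ± 0.38, and KRT4, which fell by 6.86 ± 0.48.

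Of 24 other squamous and epithelial transcription factors 23 were tested in FaDu, where 6 were higher and 6 lower with EGF, close to the 50.0% of all genes called. As single genes among these, SOX9, a factor of progenitors, rose by 4.14 ± 0.22, and GATA3, a factor of epithelial maturation, fell by 5.68 ± 0.58. SOX9 rose in Kyse30 too, by 2.50 ± 0.35. Of 9 other EMT factors 3 were tested in FaDu and 4 in Kyse30. ZEB1, a repressor of E-cadherin, rose with EGF in Kyse30, from 0.183 to 5.69 CPM (log2 change 4.66 ± 1.23). Its starting level was near 0, and it had 181 counts over all Kyse30 libraries, with a count in 15 of them, so the size of this change is uncertain. TWIST1, the paralogue of TWIST2, fell in FaDu by 0.71 ± 0.27.

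Of 13 genes listed as dependent on GRHL2, all tested, 5 were lower and 0 higher with EGF in FaDu, and 4 were higher and 0 lower with MEK inhibitor than in non-invasive cells. As shares of the list these are no higher than, or near, the 50.0% and 29.7% of all genes called. The tight-junction gene TJP3 fell by 3.65 ± 0.42 with EGF and the receptor gene ERBB3 by 2.37 ± 0.22. The medians were -0.51 and 0.12 against -0.02 and 0.03 over all genes. In Kyse30 1 of the 13, TJP3, was lower with EGF. Without the shallow library 4 were lower and 1 higher with EGF, 1 was higher and 1 lower with cetuximab and 3 were higher with MEK inhibitor. The shares of all genes called in that fit were 27.8%, 17.1% and 14.4%. Of 15 tuft cell genes 4 were in the table. Their summed level, by plain totals, averaged 34.6 CPM in serum-free and 4.50 CPM in non-invasive FaDu cells. In Kyse30 it averaged 45.7 and 23.4 CPM. POU2AF3, which encodes a coactivator of POU2F3, fell with EGF in FaDu with a log2 change of -4.88 ± 0.64, from 12.7 to 0.399 CPM, alongside POU2F3, and was higher with MEK inhibitor than in non-invasive cells by 3.29 ± 0.66, where POU2F3 was not called (0.14 ± 0.57).

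**Figure D5:**
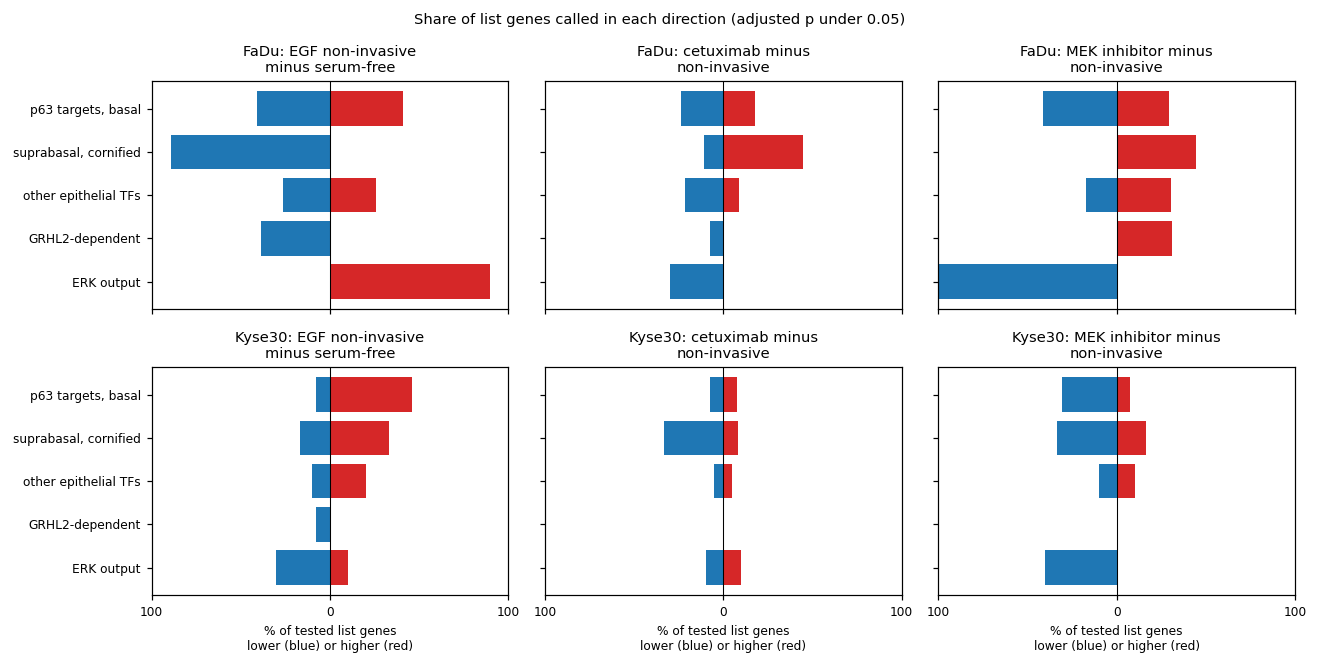
Share of the tested genes of 5 lists called lower (blue, left) or higher (red, right) for 3 comparisons in FaDu (upper row) and Kyse30 (lower row), over all libraries. In FaDu 9 of 10 ERK output genes are higher with EGF and 10 of 10 lower with MEK inhibitor, and 8 of 9 suprabasal genes are lower with EGF.

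Genes whose pattern was most like that of each factor were found by Pearson's r of log2 CPM over the libraries of a line, as a description. Groups set much of such likeness, and libraries share depth and treatment. In FaDu, over 20 libraries, SOX2 was most like CLU, the gene of the chaperone clusterin (r = 0.984), TWIST2 most like PLEK2 (r = 0.963), SOX4 most like SAMD9 (r = 0.948), PRDM1 most like ANTXR2 (r = 0.930) and KLF5 most like DUSP5, a phosphatase of ERK (r = 0.928). KLF4 and SNAI2 had no gene above 0.757 and 0.790. In Kyse30 over the 19 libraries other than the shallow one, SOX4 was most like ETV6 (r = 0.959), POU2F3 most like SMIM5 (r = 0.943) and SOX2 most like IGFBP2 (r = 0.907), which was also first for SOX2 with the shallow library (r = 0.944).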

How the data were processed

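The authors deposited 1 table of raw read counts per gene for 12655 genes and 40 libraries (QuantSeq 3' mRNA, per the labels' protocols). STAR, HTSeq and GRCh38 are named in the submitters' processing notes; tool versions, annotation, strand handling and any rule by which genes were kept are not stated there, and the smallest total of a listed gene was 142 counts. Molecular identifiers are not named, and the interval of the PRDM1 count ratio covers counting error only. Groups come from the titles, with 0 columns left unmatched. Whether replicates came from separate cultures is not labelled, so the p-values cover the spread among these libraries alone, and that spread may be technical. No replicate pair agreed within sampling noise (lowest chi-square per degree of freedom 2.42).

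The counts were tested with edgeR 4.0.16 (R 4.3.3): quasi-likelihood F test with robust dispersion, TMM factors and the default expression filter, 1 fit of 20 libraries per line (12131 genes tested in FaDu, 11976 in Kyse30, 12072 without the shallow library) and 1 of 40 for differences between lines (12652 genes). All 10 members passed the filter in each. Benjamini-Hochberg adjustment ran over all genes tested, with a threshold of 0.05. The SE is the size of the log2 fold change before edgeR's shrinkage, divided by the square root of F. The printed change is the shrunken one. The 95% intervals centre on the printed change and use this SE, so both are approximate, most of all at low counts. CPM per library uses TMM-scaled totals. Marker levels (basal squamous genes, COL1A1, CD68, CDH5) given or ranked as medians or highest values use plain totals. On simulated counts the invasive comparison recovered 56% of 2-fold and 89.9% of 4-fold changes in FaDu, and 22.2% and 69% in Kyse30.

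Alternatives were DESeq2 1.42.0, limma-voom (limma 3.58.1), DESeq2-type size factors, no filter, a filter at a mean of 5 CPM, the replicate number as a block, the 2 groups alone, and leaving out libraries; leaving the shallow library out of comparisons that do not hold it was added after seeing the data. Same-numbered samples of different groups deviated together only slightly more than others: mean r 0.0105 against -0.00153 in FaDu and 0.0417 against -0.0126 in Kyse30, so the numbers were not taken to pair samples, except that cetuximab and MEK inhibitor in Kyse30 had r of 0.14 to 0.48 for every number. Promoters are RefSeq's on GRCh38.p14, found for 7 of the 10 genes. Where a gene had more than 1 entry, as 2 did, the first was used.

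The 10 genes and the lists were chosen with earlier results of these data known. The text names all 10 genes, at most 3 genes of each list with the largest change among those called in a comparison, markers used as checks, and the genes most like each member.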

Additional observations from a re-analysis of the deposited data

Results flagged for a closer look

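In 3 of 100 groups of 4 libraries, 1 for each gene, line and treatment, a single library stood apart from the other 3 by Dixon's criterion at 95%, and chance gives about 1 in 20. TP63 had 22.99 CPM in FaDu cetuximab replicate 2, against 49.8 to 54.3 CPM in the others. KLF5 had 347 CPM in FaDu non-invasive replicate 1, against 566.5 to 588 CPM. PRDM1 had 32.85 CPM in Kyse30 MEK inhibitor replicate 4, against 55.7 to 58.3 CPM.

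A set of 12 changes differed between the lines by the test of the difference itself (Kyse30 minus FaDu, log2, edgeR adjusted p under 0.05 over all genes). For EGF-treated non-invasive cells against serum-free spheroids these were KLF5 at -0.996, POU2F3 at 2.19, PRDM1 at -4.48, SOX2 at 3.11, SOX4 at -0.773 and TWIST2 at -2.501. For cetuximab against non-invasive cells they were PRDM1 at 7.04 and SOX4 at 1.54. For MEK inhibitor against non-invasive cells they were KLF5 at 1.10, PRDM1 at 5.29, SOX4 at 1.46 and TWIST2 at 1.69. The PRDM1 values rest on FaDu libraries of 0 to 17 counts in the serum-free, cetuximab and MEK inhibitor groups.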

How the results depend on the processing

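Scaling by DESeq2-type factors, no expression filter and a filter at a mean of 5 CPM moved no call of the 10 genes. With DESeq2 the number called was 5 in place of 3 for EGF in Kyse30, 4 in place of 2 for cetuximab and 2 in place of 1 for MEK inhibitor, the last 2 against serum-free; it also gave 3 in place of 2 for MEK inhibitor against non-invasive Kyse30 cells, 4 in place of 3 for cetuximab in FaDu and 3 in place of 2 for the line difference with cetuximab. A fit of the 2 groups alone gave 6, 4 and 2 there, 0 in place of 2 for invasion in Kyse30 and 1 in place of 3 for MEK inhibitor against cetuximab in FaDu. Limma-voom gave 1 for invasion in Kyse30. Without the 3 libraries that stand apart the number was 1 for invasion, and 4 and 2 for cetuximab and MEK inhibitor against serum-free. The causes were not tested.

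Replicate numbers were not taken to pair samples; with the replicate number as a block, invasion in Kyse30 called 0 in place of 2, the line difference for MEK inhibitor 2 in place of 4 and MEK inhibitor in FaDu 4 in place of 5, and no other number of the 10 changed. For the Kyse30 inhibitors against each other, whose numbers did deviate together, 0 were called with and without the block.

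Leaving out 1 library at a time, the number called in FaDu ran from 5 to 6 for EGF, was 1 for invasion, and ran from 2 to 3 for cetuximab, 4 to 5 for MEK inhibitor, 3 to 4 between inhibitors, and 5 to 7 and 4 to 5 for cetuximab and MEK inhibitor against serum-free. In Kyse30 these ranges were 2 to 4, 0 to 3, 1 to 3, 2 to 3, 0 to 0, 0 to 4 and 0 to 2. For line differences they were 3 to 6 for EGF, 0 for invasion, 2 for cetuximab and 2 to 4 for MEK inhibitor, and 5 to 7 in serum-free spheroids. Calls over all genes ran, in the same orders, as follows. FaDu had 5427 to 5662, 209 to 331, 607 to 1344, 2893 to 3550, 1977 to 2438, 4655 to 5220 and 1748 to 2545. Kyse30 had 1030 to 3354, 7 to 253, 316 to 2068, 284 to 1737, 41 to 563, 176 to 1829 and 190 to 1862. Line differences had 1610 to 3118, 4 to 74, 99 to 472, 428 to 1448 and 4865 to 6594. Signs turned for 3 values that were not called: PRDM1 for MEK inhibitor against serum-free FaDu ran from -1.33 to 0.22 (without FaDu serum-free replicate 2), and the line difference from -0.69 (without FaDu non-invasive replicate 2) to 0.47 for POU2F3 with cetuximab and from -0.64 (without Kyse30 MEK inhibitor replicate 4) to 0.38 for SOX2 with MEK inhibitor.

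Over all genes, invasion in FaDu called 367 genes, and 625 with DESeq2. MEK inhibitor against cetuximab in FaDu called 2395, and 1230 with the 2 groups alone. In Kyse30 the 7 comparisons, in the order above, called 1540, 49, 589, 546, 141, 375 and 467 genes, DESeq2 2430, 416, 1356, 1135, 313, 1097 and 1116, the 2 groups alone 2404, 0, 1484, 1775, 603, 1246 and 1979, and the fit without the 3 libraries 2867, 76, 1182, 1188, 725, 2126 and 2135. The block gave 24 for invasion. Line differences for invasion, cetuximab and MEK inhibitor called 23, 166 and 645, and 145, 407 and 1194 with DESeq2; cetuximab gave 317 without the 3 libraries. At counts as low as those of PRDM1 in FaDu with inhibitors, depth limits the size of a change.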
